A study of Mus musculus with 88 samples.

Results

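The genes of 9 proteins that package or carry histones in the mouse oocyte were followed in the RNA of single fully grown germinal vesicle (GV) oocytes. They are H1foo, H1f0, Npm2, H3f3a, H3f3b, H2afz, H2afx, Hira and Nasp, and each was matched to a row of the count table by name and position, without use of its counts. Of 38540 features in the table, 7 were the feature of a listed gene. The H1f0 locus lies wholly inside a longer feature of Gcat and the H2afx locus inside a feature of Dpagt1, on the same strand, so that counts of H1f0 and H2afx cannot be told apart from those of their neighbours and no value is given for either.

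The oocytes came from virgin, spontaneously ovulating C57BL/6Babr females aged 12 weeks (young) or 44 to 54 weeks (aged, called old in the labels), and no label names an engineered allele or a treatment. By the study's methods the young oocytes came from 3 mice and the aged oocytes from 7, but no label ties an oocyte to its mouse, so there is only 1 sample per age, without a replicate check on any difference, and p-values are not given. The chromatin configuration of an oocyte, non-surrounded nucleolus (NSN) or surrounded nucleolus (SN), was predicted by the authors from the transcripts of the same oocyte and was not seen under a microscope. A difference between NSN and SN oocytes is therefore a description of sets that RNA levels had already formed. The values below are of 87 oocytes, 30 young NSN, 12 young SN, 37 aged NSN and 8 aged SN.

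Linker histones bind the DNA between nucleosomes, and the oocyte replaces the somatic forms with its own form, H1FOO. Histone variants such as H3.3 and H2A.Z are made outside S phase from polyadenylated mRNA, which is why a growing or arrested oocyte can add them to chromatin without replicating its DNA. Chaperones such as nucleoplasmin, HIRA and NASP hold histones in store and hand them to DNA. During the passage from NSN to SN the chromatin of a GV oocyte condenses around the nucleolus and transcription ceases, and after fertilisation the stored histones and chaperones rebuild the paternal chromatin.

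A count is a read, not a molecule, because the Smart-seq2 libraries carry no molecular identifiers. The level of a group is the summed count of its oocytes scaled to a total of 1000000 (CPM), which gives deeply sequenced oocytes more weight, and a 95% interval covers counting error only. CPM is a share of the counts of an oocyte and does not measure its RNA content. A young oocyte had between 1579196 and 8231046 counts in all, and an aged oocyte between 976456 and 5448310. All 7 oocyte markers with a feature were present, with a summed level of 8397 to 20793 CPM per oocyte. The 9 granulosa and cumulus markers with a feature summed to between 5.67 and 93.1 CPM per oocyte, with medians of 16.9 CPM in young NSN, 19.6 CPM in young SN, 14.4 CPM in aged NSN and 24 CPM in aged SN oocytes. Of these, Kitl, the KIT ligand, was alone in reaching 10 CPM. It had 11.7 CPM and a count in all 87 oocytes, with a log2 ratio SN over NSN of 0.24 in young and 0.80 in aged oocytes. Inha, an inhibin subunit, had 5.87 CPM and a count in 75 oocytes, and the other 7 were below 2 CPM. Among the latter Hsd17b1 had a count in 60 oocytes, Inhba in 43, Fst in 39, Fshr in 33 and Amhr2 in 19. Amh was counted in 13 oocytes and Foxl2, a defining granulosa factor, in 6. The part of these markers in the results was not tested. In the theca, stroma and blood list Col1a1, Hba-a1 and Hbb-bs were listed at 0, and Pecam1, an adhesion molecule of endothelium, made up nearly all of the summed 38.1 to 99.8 CPM and had a count in every oocyte. Dcn had 1.00 CPM and a count in 54 oocytes, and Col1a2 had a count in 2. Because mRNA was caught by its poly(A) tail, the canonical histone genes, whose mRNA ends in a stem-loop, are poorly captured.

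H1foo, the oocyte linker histone, was the most abundant of the listed genes. Its feature spans chr6:115944640-115952282 on the plus strand of GRCm38. Per kilobase of annotated exon it reached 2510 CPM over the 87 oocytes, which placed it at rank 2 of 13592 protein-coding features. The other linker histones formed a contrast: 4 of 9 listed genes had a feature, none reached 10 CPM, Hist1h1d stood at 0.613 CPM and H1fx at 0.434 CPM, Hist1h1t had a count in 1 oocyte and Hist1h1b had none. Poly(A) capture bears on the Hist1h1 genes among these. The RefSeq window of 250 bases before the start of H1foo (listed there as H1f8) lies at chr6:115944681-115944930, plus strand, build GRCm38.p6. It is shown because H1foo led the set, and below it stands the same window of H2afz (listed as H2az1, chr3:137864237-137864486, plus strand), the low gene that differed most between configurations. Both are written 5′ to 3′, and capitals mark 3 kinds of motif read on both strands. These are the E-box, spelled CANNTG, the box known by its letters as CCAAT, and the GC box, whose spelling was GGGCGG.
H1foo: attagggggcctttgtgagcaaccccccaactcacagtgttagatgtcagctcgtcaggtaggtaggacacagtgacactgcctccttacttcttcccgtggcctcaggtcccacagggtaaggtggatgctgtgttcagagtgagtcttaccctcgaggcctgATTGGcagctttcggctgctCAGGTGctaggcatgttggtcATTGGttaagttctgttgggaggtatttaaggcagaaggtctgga
H2afz: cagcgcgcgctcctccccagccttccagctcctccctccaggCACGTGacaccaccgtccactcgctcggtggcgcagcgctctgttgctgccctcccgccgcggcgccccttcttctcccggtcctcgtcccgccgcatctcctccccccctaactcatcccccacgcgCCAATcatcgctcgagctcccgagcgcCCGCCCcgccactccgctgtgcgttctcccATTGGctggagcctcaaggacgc
The H1foo window had a GC content of 53.2%, with 2 CCAAT boxes starting 86 and 45 bases before the start and 1 E-box 66 bases before it. The H2afz window had a GC content of 71.2%, with 2 CCAAT boxes starting 80 and 23 bases before the start, 1 E-box 208 bases before it and 1 GC box. No TATAAA was found in either on either strand. Of 32851 RefSeq windows of the same length, 66.2% held an E-box, 33.9% a CCAAT box, 32.7% a GC box and 12.4% a TATAAA. No exon of GENCODE M21 on the gene's strand falls in these windows. The oocyte assembly places the start of its H1foo feature 291 bases and that of its H2afz feature 137 bases before the RefSeq start. A match is a description of letters, not of a bound site.

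H1foo stood at 2915 CPM in young oocytes (95% interval 2906 to 2924) and at 3131 CPM in aged oocytes (3121 to 3141), and its widest gap was between aged NSN and aged SN oocytes. Single young NSN oocytes had between 2327 and 3446 CPM with a median of 3008 CPM, and young SN oocytes between 2135 and 3271 CPM with a median of 2652 CPM. Aged NSN oocytes had between 2459 and 4302 CPM with a median of 3225 CPM, and aged SN oocytes between 2331 and 2641 CPM with a median of 2493 CPM. The aged NSN oocytes reached the highest values of all and 10 of the 37 lay above the highest young NSN oocyte, while the 8 aged SN oocytes lay in a narrow band at the low end. All 8 lay below the aged NSN median, and 35 of the 37 aged NSN oocytes exceeded the highest aged SN oocyte. The ranges of the young NSN and young SN oocytes overlapped widely, although 10 of 12 young SN oocytes lay below the young NSN median. On the log2 scale the ratio SN over NSN was -0.12 in young oocytes (-0.13 to -0.11) and -0.39 in aged oocytes (-0.40 to -0.37), the latter a level 1.31-fold lower in SN. The gap between these ratios was not tested. The ratio aged over young was 0.10 over all oocytes, 0.13 within NSN and -0.14 within SN. Within NSN it was 0.03 among oocytes whose name has the suffix A and 0.22 among those without it. Within SN it was -0.21 with the suffix and -0.02 without it.

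Npm2, the nucleoplasmin of the oocyte and a chaperone of H2A-H2B, was the next most abundant, with 682 CPM per kilobase and rank 30. Its feature, chr14:70647293-70653303 on the minus strand, covers only part of the annotated gene. The young oocytes held 690 CPM of Npm2 and the aged ones 727 CPM. Single young NSN oocytes had 542 to 811 CPM with a median of 669 CPM, and young SN oocytes 598 to 869 CPM with a median of 768 CPM. In aged NSN oocytes the range was 452 to 892 CPM with a median of 753 CPM, and in aged SN oocytes 596 to 983 CPM with a median of 824 CPM. Npm2 therefore leaned the other way from H1foo, with a log2 ratio SN over NSN of 0.22 in young oocytes (0.20 to 0.24) and 0.22 in aged oocytes (0.19 to 0.24). In each age the groups overlapped, with 10 of 12 young SN and 6 of 8 aged SN oocytes above the NSN median of their age. The log2 ratio aged over young was 0.08 over all oocytes.

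**Figure D1:**
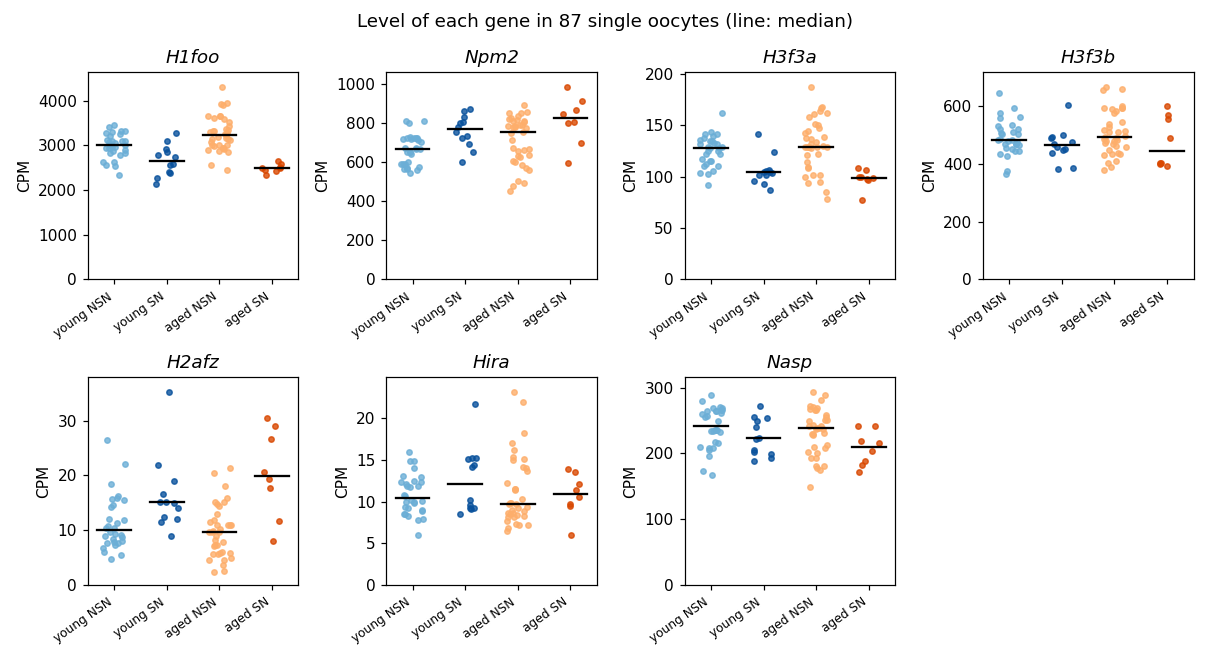
Level of each gene (vertical axis, CPM from 0, each panel on its own scale) in single oocytes of 4 groups, 30 young NSN, 12 young SN, 37 aged NSN and 8 aged SN. Each point is an oocyte and the black line is the median of the group. The 8 aged SN oocytes sit in a narrow low band for H1foo, from 2331 to 2641 CPM, and 7 of the 8 lie above the aged NSN median for H2afz.

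H3.3, the H3 variant laid down outside replication, is encoded with the same protein sequence by H3f3a and H3f3b. Most of the counts of the pair, also per kilobase of exon, fell on H3f3b, at chr11:116019596-116030762 on the minus strand. The young oocytes held 485 CPM of H3f3b and the aged ones 508 CPM, and H3f3a, at chr1:180803024-180814181 on the minus strand, stood at 119 CPM and 122 CPM. Per kilobase of exon the levels were 167 CPM for H3f3b (rank 194) and 34.4 CPM for H3f3a (rank 1474). With the shortest coding transcript as length the order turned, at 249 CPM for H3f3b and 325 CPM for H3f3a.

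Of the H3.3 genes, H3f3a was past 1.2-fold between aged SN and NSN oocytes and H3f3b was not, but with fewer oocytes this turned. H3f3a ranged from 91.8 to 162 CPM in young NSN oocytes with a median of 128 CPM, and from 86.9 to 142 CPM in young SN oocytes with a median of 104 CPM. In aged NSN oocytes it ranged from 78.4 to 187 CPM with a median of 129 CPM, and in aged SN oocytes from 77.3 to 108 CPM with a median of 99.1 CPM. All 8 aged SN oocytes and 11 of 12 young SN oocytes lay below the NSN median of their age, while the NSN ranges reached down over nearly all of the SN values. The log2 ratio SN over NSN was -0.26 in young oocytes (-0.31 to -0.21) and -0.39 in aged oocytes (-0.46 to -0.32). Among aged oocytes whose name has the suffix A, 3 of them SN, the ratio was -0.17 and no longer past 1.2-fold, and among those without it -0.56. H3f3b ranged from 365 to 646 CPM in young NSN, 384 to 603 CPM in young SN, 380 to 666 CPM in aged NSN and 393 to 600 CPM in aged SN oocytes, and these groups overlapped along most of their length. Its log2 ratio SN over NSN was -0.08 for young and -0.05 for aged oocytes. The aged ratio of H3f3b depended on the oocytes included. It was -0.32 with the suffix A and 0.04 without it, -0.29 without the aged oocytes numbered 41 to 48 and 0.07 without those numbered 25 to 31, so that among suffix A oocytes H3f3b was past 1.2-fold and H3f3a was not.

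The share of H3f3a among the counts of both H3.3 genes was 20.3% in young NSN oocytes (exact binomial 95% interval 19.9% to 20.6%), 18.3% in young SN (17.8% to 18.9%), 19.9% in aged NSN (19.6% to 20.3%) and 16.4% in aged SN (15.8% to 17.1%). Over single oocytes the share ran from 11.7% to 27%, and the SD within a group was between 2.73 and 3.55 percentage points, so the groups overlapped. The median share was 20.1% in young NSN, 18.1% in young SN, 20.4% in aged NSN and 18.3% in aged SN oocytes. By these medians the aged SN oocytes were not below the young SN ones, unlike by the summed counts. The summed level of both genes was 618 CPM in young NSN, 570 CPM in young SN, 638 CPM in aged NSN and 592 CPM in aged SN oocytes.

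Reads can reach the H3.3 features from other sources. On the other strand, most of the span of the H3f3a feature is overlapped by a feature at chr1:180802568-180810126. It lies on the lincRNA gene Gm17275, and the authors' gene table also names it H3f3a. Its level was 46.3 CPM for young and 52.3 CPM for aged oocytes, and like H3f3a it was lower in aged SN oocytes, at 39.5 CPM, than in aged NSN oocytes, at 55.0 CPM. Over the 45 aged oocytes the Spearman correlation of the pair was 0.77, and over the 42 young oocytes 0.28. It was 0.78 within the 37 aged NSN oocytes and -0.45 within the 8 aged SN oocytes. The H3f3b feature overlaps that of Unk on the other strand. Whether the counting used strand is not given in the sources used here, so overlapping features may share reads. Of the distinct 100-base words in the annotated H3f3a transcripts, 5.64% occur in transcripts of 13 other genes, and for H3f3b 1.92% occur in 2 other genes.

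H2afz, which encodes the variant H2A.Z, was scarce. Its feature lies at chr3:137864350-137866922 on the plus strand, and its level over all 87 oocytes was 12.6 CPM (12.1 to 13), with 3 to 139 counts per oocyte. It was also the gene of this set with the widest gap between configurations. Young NSN oocytes had 4.67 to 26.5 CPM with a median of 9.95 CPM, and young SN oocytes 8.87 to 35.1 CPM with a median of 15.0 CPM. Aged NSN oocytes had 2.29 to 21.4 CPM with a median of 9.58 CPM, and aged SN oocytes 7.94 to 30.6 CPM with a median of 19.9 CPM. SN oocytes were mostly high, 11 of 12 young and 7 of 8 aged ones above the NSN median of their age, yet the ranges overlapped in both ages. The log2 ratio SN over NSN was 0.37 in young oocytes (0.23 to 0.52) and 1.07 in aged oocytes (0.91 to 1.24), a 1.3-fold and a 2.1-fold higher level. Within SN oocytes the ratio aged over young was 0.54 (0.36 to 0.72), and within NSN oocytes -0.16 (-0.29 to -0.04). The NSN ratio turned to 0.04 among oocytes with the suffix A and lay between -0.40 and -0.05 under the other alternatives. The SN ratio lay between 0.32, by the mean over oocytes, and 0.71, without the young oocytes numbered 33 to 39. By the median over oocytes it was 0.41. The gap between the ages was not tested.

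The young ratio of H2afz depended on the oocytes included and on their weight. Without young SN oocyte 33A it was 0.26, below 1.2-fold, and without the young oocytes numbered 33 to 39 it was 0.20. Among young oocytes without a suffix it was 0.22, and among those with the suffix A 0.60. Without the young oocytes numbered 17 to 24 it was 0.60. By the median over oocytes it was 0.60 and by the mean 0.53. The aged ratio stayed between 0.92 and 1.31 under every alternative run. Within NSN, H2afz was also higher in oocytes with more counts in all, with a Spearman correlation of 0.41 over 37 aged and 0.31 over 30 young oocytes. These points share their configuration but not their library. Over all 42 young oocytes the correlation was 0.03 and over all 45 aged ones 0.31. Other genes leaned the other way with depth, H3f3a at -0.44 and Nasp at -0.36 in aged NSN and Npm2 at -0.37 in young NSN oocytes. At equal depth, 900000 counts drawn from each oocyte, the aged ratio was 1.31 and the young ratio 0.42. In the annotation, 13% of the 100-base words of H2afz transcripts are shared with 2 other genes.

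Hira, the chaperone that deposits H3.3 outside replication, had a level of 11.5 CPM for young and 11.3 CPM for aged oocytes, with 6 to 93 counts per oocyte. Its feature at chr16:18876686-18970309 (plus strand) overlaps at its start the feature of Mrpl40, whose mean count of 191 per oocyte exceeded the 32.3 of Hira, and 39.3% of its annotated 100-base words also occur in the gene Gm28539, so its level is uncertain. Single oocytes had 5.99 to 16 CPM in young NSN, 8.48 to 21.8 CPM in young SN, 6.40 to 23.1 CPM in aged NSN and 5.96 to 13.9 CPM in aged SN. The groups overlapped, and the log2 ratio SN over NSN was 0.22 in young oocytes (0.06 to 0.38) and -0.02 in aged oocytes (-0.23 to 0.19).

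Nasp, which binds H3-H4 and linker histones, had a level of 234 CPM for young and 225 CPM for aged oocytes (chr4:116601047-116627941, minus strand). The range was 168 to 290 CPM in young NSN, 189 to 273 CPM in young SN, 148 to 293 CPM in aged NSN and 171 to 242 CPM in aged SN oocytes. These ranges lay over each other, and the log2 ratio SN over NSN was -0.11 for young and -0.17 for aged oocytes. Per kilobase of all annotated exons Nasp had 30.6 CPM, next to H3f3a, but with the longest coding transcript as length it had 91.3 CPM against 42.4 CPM for H3f3a, so the order of these neighbours depends on the length used. In the order H1foo, Npm2, H3f3b, then H3f3a and Nasp, then H2afz with 7.07 CPM and Hira with 1.83 CPM per kilobase, the other steps kept their order under either length. With the shortest coding transcript H3f3a stood above H3f3b.

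Across the set, the count of genes that differed with age or configuration was set beside that of all features. A feature was counted as past the limit when its level differed at least 1.2-fold and reached 10 CPM in either group. Between aged and young oocytes none of the 7 genes passed, where 5.26% of 9397 features did (1.39% higher and 3.86% lower in aged oocytes), and within NSN oocytes none passed, where 6.32% did (1.69% higher and 4.62% lower). With 7 genes, a count of 0 is near that background. Within SN oocytes H2afz passed, 1 of 7, where 18.6% of features did (10.3% higher and 8.29% lower). The median log2 ratio aged over young of the 7 genes was 0.03, beside -0.00 for all features. Between SN and NSN oocytes 1 of 7 passed in young oocytes (H2afz, higher), where 18.4% of features did (12.5% higher and 5.89% lower), with H3f3a just short at -0.26. In aged oocytes 3 of 7 passed (H2afz higher, H1foo and H3f3a lower), where 41% of features did, 22.9% higher and 18% lower. These shares too are near the background. With 7 genes they cannot show whether the set differed between configurations more or less often than other features. The median log2 ratio SN over NSN of the 7 genes was -0.08 for young oocytes and -0.05 for aged ones, beside 0.00 and -0.01 for all features.

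**Figure D2:**
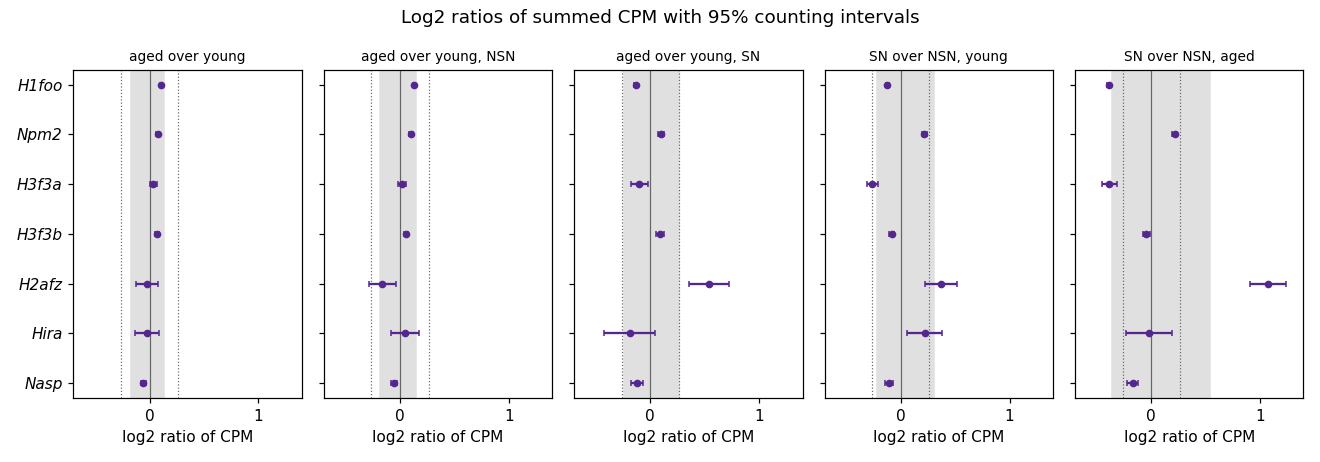
Log2 ratio of summed CPM (horizontal axis) for each gene in 5 contrasts, with 95% counting intervals as bars. Grey bands run from the 10th to the 90th percentile of all features with at least 10 CPM and dotted lines mark 1.2-fold. H2afz at 1.07 in aged SN over NSN oocytes lies far outside its band, and H1foo and H3f3a at -0.39 lie at its lower edge.

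By their names the oocytes form 6 series of consecutive numbers, called runs here, 3 per age, whose meaning no label gives. Within runs, H2afz was higher in SN than in NSN oocytes in 6 of 6, with log2 ratios from 0.11 to 1.13. H1foo and H3f3a were lower in SN oocytes in 5 of 6 runs, the exception in both cases being the young run 1 to 7 with its single SN oocyte. Without young run 1 to 7 the young ratio was -0.19 for H1foo and -0.29 for H3f3a, which then passed 1.2-fold. Npm2 was higher in SN oocytes in 5 of 6 runs and lower in the aged run 9 to 16, which has 2 SN oocytes. For the NSN level of H1foo the young runs had 2848 to 3125 CPM and the aged runs 3109 to 3524 CPM, which overlapped barely.

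**Figure D3:**
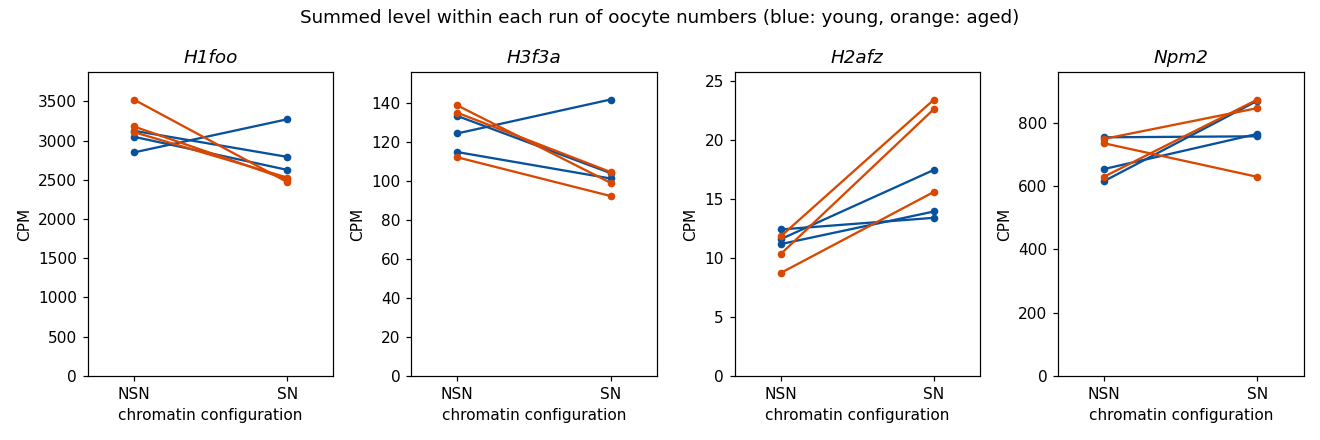
Summed level (vertical axis, CPM from 0) of H1foo, H3f3a, H2afz and Npm2 in the NSN and SN oocytes of each run of oocyte numbers, with a line for each of 6 runs, blue for young and orange for aged. All 6 lines go up for H2afz, and 5 of 6 go down for H1foo and for H3f3a.

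Among the 7 genes the closest pair over single oocytes was H1foo and H3f3a, with a Spearman correlation of 0.61 over 87 oocytes. It was 0.47 over the 30 young NSN and 0.37 over the 37 aged NSN oocytes, so part of the relation was seen within a configuration. These points share library preparation, and CPM values of 1 oocyte share its total. H1foo and Nasp ran against each other in young NSN oocytes, at -0.61, and less in aged NSN oocytes, at -0.30. H3f3a and H3f3b, which encode the same protein, had a correlation of 0.17 over the 87 oocytes.

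**Figure D4:**
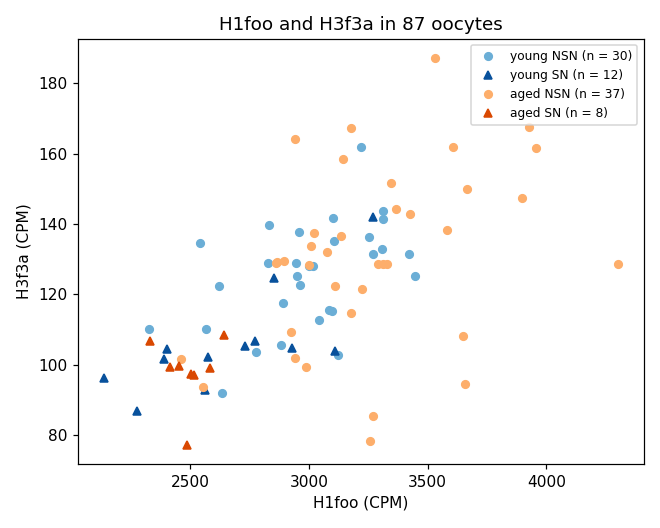
H1foo (horizontal axis) against H3f3a (vertical axis), both in CPM, for each of 87 oocytes, with circles for NSN and triangles for SN. The SN oocytes gather at the lower left, with no aged SN oocyte above 2641 CPM of H1foo or 108 CPM of H3f3a.

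Out of 7623 protein-coding features with at least 10 CPM, those most like H1foo over the 87 oocytes were Polr2d, a subunit of RNA polymerase II, Ccdc69 and Gckr, with Spearman correlations of 0.84, 0.84 and 0.83. For Npm2 they were Ldhb, a lactate dehydrogenase subunit, with 0.79, Nudt5 with 0.73 and Mtmr14 with 0.71. H3f3a was nearest to Orc6, a subunit of the origin recognition complex, with 0.78, and to Plac8 and Btf3 with 0.77 each. H3f3b was nearest to Cnot7, a deadenylase of the CCR4-NOT complex, with 0.73, and to Pnpla8 and Snrpb2 with 0.72 each. The nearest features of H2afz were Appl1 with 0.68, Tmem168 with 0.65 and Fam84a with 0.64. Hira was nearest to Furin with 0.61, Fahd2a with 0.51 and Ulk1 with 0.49, and Nasp to Rragc with 0.70, Crk with 0.66 and A430033K04Rik with 0.64. The likeness of H1foo to Gckr was 0.62 within young NSN and 0.82 within aged NSN oocytes. To Polr2d it went the other way, at 0.82 and 0.65, and to Ccdc69 it was 0.78 and 0.75. Some pairs were weak within a configuration. Hira had 0.20 with Fahd2a and 0.19 with Ulk1 in young NSN oocytes, against 0.62 and 0.56 in aged NSN oocytes.

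The 7 genes varied more between aged than between young oocytes, as most features did. The coefficient of variation of CPM was 11.3% in young and 14.9% in aged oocytes for H1foo, 12.9% and 17.4% for Npm2, 14.3% and 21% for H3f3a, and 12.2% and 15.5% for H3f3b. For Nasp it was 13% and 15.3%, for Hira 26.4% and 34.8%, and for H2afz 46.7% and 58.0%. After counting noise was taken off, the squared coefficient was higher in aged oocytes for 7 of 7 genes, with a median log2 ratio of 0.81 and a range from 0.47 for Nasp to 1.21 for H3f3a. Features of like mean count had medians of 0.58 at 1000 and more counts, 0.50 at 100 to 1000 and 0.42 at 10 to 100. The share of these features that was higher in aged oocytes is not given, so 7 of 7 has no background and may be near it. Within SN oocytes this turned for several genes. The squared coefficient was lower in aged than in young SN oocytes for H1foo (0.0013 against 0.0163), H3f3a (0.0043 against 0.0149) and Hira (0.0145 against 0.0702). It was also lower for H2afz (0.135 against 0.151) and barely for Nasp. For Npm2 (0.0218 against 0.0115) and H3f3b (0.0331 against 0.0140) it was higher. The aged oocytes come from more mice than the young ones, and the part of mice in the spread cannot be told apart from that of age.

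**Figure D5:**
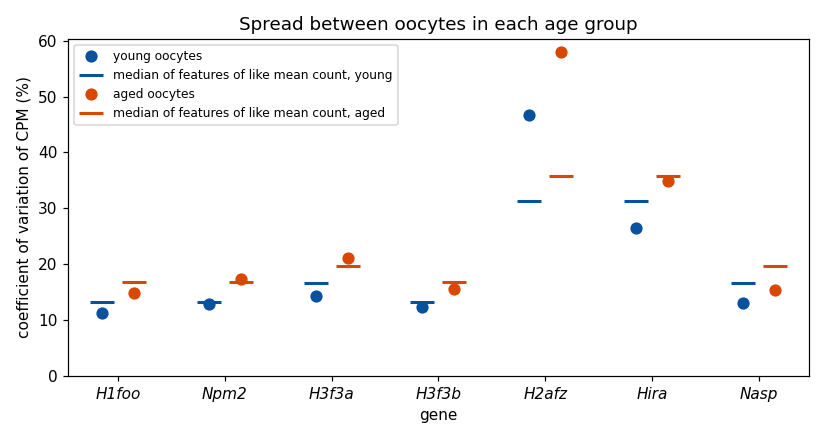
Coefficient of variation of CPM over oocytes (vertical axis, percent, from 0) for each gene in 42 young (blue) and 45 aged (orange) oocytes. Dashes are the median over features of like mean count in the same age, and H2afz, at 46.7% and 58.0%, lies above its dashes in both ages.

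Configuration and spread met in H1foo. In aged SN oocytes its coefficient of variation was 3.86%, where the median of the 464 features with 1000 and more counts was 11.0%, against 12.0% in aged NSN, 9.16% in young NSN and 12.8% in young SN oocytes. The 8 aged SN oocytes come from all 3 aged runs. In H3f3b the same 8 oocytes had 18.5%, the highest of its 4 groups.

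The partners of these genes were counted in lists of related genes. Of 14 chaperones of H3.3 and H3-H4, all at 10 CPM or more and with Asf1a on a feature that the authors' gene table names Mcm9, 1 was at least 1.2-fold lower in aged than in young oocytes and none higher. It was Cabin1, a subunit of the HIRA complex, at 116 CPM against 141 CPM. In SN oocytes 1 of 14 was lower in each age, Atrx, the remodeller that works with DAXX in placing H3.3, with log2 ratios of -0.43 in young and -0.48 in aged oocytes, and Hjurp, the chaperone of CENP-A, was higher in aged SN oocytes at 0.34. The list medians, aged over young and SN over NSN in young and aged oocytes, were -0.01, -0.02 and -0.02.

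Among chaperones of H2A-H2B and H2A.Z, 12 of 14 reached 10 CPM. Srcap, the remodeller that exchanges H2A.Z into nucleosomes, was lower in aged oocytes, with a log2 ratio of -0.30. Its ratio SN over NSN was 0.25 for young and 0.26 for aged oocytes, just short of 1.2-fold. Npm1 and Nap1l1 were lower in SN oocytes of both ages, at -0.27 and -0.39 in young and at -0.30 and -0.43 in aged oocytes. In aged SN oocytes 2 of 12 were higher, Set at 0.66 and Nap1l4 at 0.33, and Vps72, a subunit that carries H2A.Z, was lower at -0.34. The other core histone variants with at least 10 CPM in an aged group were H2afv, H2afj, H2afy and Cenpa, and Cenpa was lower in aged SN oocytes, at 47.1 CPM against 63.6 CPM in NSN, as was H2afy, at 7.93 CPM against 10.3 CPM.

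Genes that process histone mRNA lay on both sides. Zfp473, whose protein acts with the U7 snRNP in cutting the ends of histone mRNA, had 43.4 CPM in young NSN and 83.8 CPM in young SN oocytes, and 33.9 CPM in aged NSN and 101 CPM in aged SN oocytes, log2 ratios of 0.95 and 1.57. Casp8ap2, whose protein FLASH takes part in the same cutting, was lower in SN oocytes of both ages, at -0.42 in each. Slbp, the stem-loop binding protein, was lower in aged SN oocytes at -0.38. Over the list 1 of 7 was higher and 1 of 7 lower in young, and 1 of 7 higher and 3 of 7 lower in aged SN oocytes. Of 7 genes that phosphorylate H2A.X or act on it at DNA breaks, 2 were higher in young SN oocytes, Mdc1 at 0.41 and the kinase Prkdc at 0.28. In aged SN oocytes 4 were higher, Atm, also a kinase, at 0.92, Prkdc at 0.62, Mdc1 at 0.48 and Rnf8, a ubiquitin ligase, at 0.32. The feature matched to Rnf8 by position bears the name Ftsjd2 in the authors' gene table, so this count is 3 without it. None of the 7 was lower in either age. The backgrounds given above for each contrast, 18.4% and 41% of features, hold for these lists, and oocyte markers differed as well, with 5 of 7 higher and 1 lower in young and 6 of 7 higher and 1 lower in aged SN oocytes. Their part in these differences was not tested.

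By age, the backgrounds were 5.26% of features over all oocytes, 6.32% within NSN and 18.6% within SN. Over all oocytes Cabin1, Srcap and Zfp473 were lower in aged oocytes, Zfp473 at -0.27, and no gene of these lists was higher past 1.2-fold. Within NSN oocytes Slbp was higher in aged ones at 0.27, at 1298 CPM against 1078 CPM, while Zfp473 at -0.36, Atm at -0.34, Srcap at -0.28 and Cabin1 at -0.26 were lower. Within SN oocytes Set at 0.51, Atm at 0.37, Dek at 0.28 and Zfp473 at 0.27 were higher in aged ones, and Cenpa at -0.45, Cabin1 at -0.33 and Srcap at -0.27 were lower. Zfp473 and Atm thus had opposite signs within NSN and SN oocytes, and this was not tested. The features of Zfp473, Atm, Atrx, Srcap, Slbp and H2afy overlap a feature on the other strand.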

How the data were processed

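The RNA part of scM&T-seq was measured in 88 single GV oocytes. The authors trimmed reads with Trim Galore, aligned them to GRCm38 with HiSat2, and deposited raw counts, which are primary alignments falling on the features of an assembled oocyte transcriptome, 1 column per oocyte and with no normalisation. The counting program and its strand setting are not given in the sources used here. Age came from the labels and configuration from the study's supplementary table. The aged oocyte 48A, which that table leaves without a configuration, was kept out of the main set. The members and the lists of related genes were chosen with earlier results of these data known.

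Each listed gene was matched to the feature that the authors' gene table names, or otherwise to the same-strand feature whose span overlapped the GENCODE M21 gene best (Jaccard index of at least 0.3), and where several bore a symbol the best overlap was kept. Only part of that gene table was in hand, with names for 1998 features. Group counts were summed and converted to CPM. Intervals are exact Poisson, conditional binomial or Clopper-Pearson intervals at 95%. Related genes are named mostly where they reached 10 CPM in a group and 1.2-fold in a contrast, and not every such gene is named. Srcap is also named where it was just short of 1.2-fold. Genes most like a listed gene are the 3 protein-coding features with the highest Spearman correlation. No test was run between groups, and Dixon's test was used only to find single aged SN oocytes that stand apart. TMM factors came from edgeR 4.0.16 in R 4.3.3, and all else from Python 3.11.15 with numpy 2.4.6, scipy 1.17.1, pandas 2.3.3 and matplotlib 3.10.9. The calculations were tested on simulated counts. Promoter windows are from RefSeq (GRCm38.p6), in which 7 of the 9 genes were matched. Alternatives changed the normalisation, the depth, the oocytes included, the estimator, the fold and the filter. The length of the longest coding transcript was added as an alternative after the data had been seen. The methylation data were not used here.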

Additional observations from a re-analysis of the deposited data

Results flagged for a closer look

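H3f3a in the aged SN oocyte 46 stood at 77.3 CPM, apart from the other 7 aged SN oocytes. The gap to its nearest neighbour was 0.636 of the range of the group, above the limit of Dixon's test at 95% for 8 values. The test was made for 7 genes in this group, and chance alone sets off about 1 in 20 such groups. Without any single oocyte the H3f3a log2 ratio SN over NSN in aged oocytes stayed between -0.42 and -0.34.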

How the results depend on the processing

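None of the log2 ratios past 1.2-fold changed sign under any alternative. Of 525 ratios of single genes recomputed, 458 stayed within 0.1 of the reported value and 67 moved further, most of them of H2afz and Hira, whose low counts limit their precision. Of 35 ratios of spread, 30 stayed within 0.5. All 7 genes were more spread in aged oocytes under each of the 5 alternatives run for spread. SN oocytes alone were not among these alternatives, and the share of all features is not given. The cause of a change was not tested except where fewer oocytes or another limit made it.

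The number of genes past 1.2-fold between SN and NSN young oocytes was 1, and became 2 with TMM factors, median of ratios size factors, 900000 counts per oocyte, the median over oocytes, or without the young oocytes numbered 1 to 7, 17 to 24 or 33 to 39. It was 3 in oocytes without a name suffix, 4 at 1.1-fold, and 0 at 1.5-fold or at 50 CPM. Leaving out 1 oocyte gave 0 to 2. It was 0 without young 33A, through H2afz at 0.26, and 2 without young 24A, through Hira at 0.31, or without any of 13 other oocytes, through H3f3a at -0.28 to -0.26. In aged SN over NSN oocytes it was 3, and 5 at 1.1-fold, 1 at 1.5-fold, 2 at 50 CPM, and 4 without a suffix or without the aged oocytes numbered 9 to 16 or 41 to 48, with 3 whichever oocyte was left out. Between aged and young NSN oocytes it was 0, and 1 at 900000 counts, without a suffix, without the aged oocytes numbered 41 to 48 or at 1.1-fold. Between aged and young SN oocytes it was 1, and 2 at 900000 counts, without the young oocytes numbered 17 to 24 or at 1.1-fold, 3 without a suffix, and 0 at 1.5-fold or at 50 CPM. Leaving out 1 oocyte gave 1 to 2, the 2 without young 24A, through Hira at -0.28. The median log2 ratio of the genes in aged SN over NSN oocytes was -0.05, and -0.15 by the median over oocytes, -0.17 with suffix A and -0.17 at 50 CPM, where H2afz and Hira drop out. In aged over young SN oocytes it was -0.10, and 0.00065 without the young oocytes numbered 33 to 39. No paired analysis was possible because young and aged oocytes share no number in their names.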

Other observations

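The aged oocyte 48A, with 3588332 counts and no configuration, stood outside the range of all other 87 oocytes in 5 of the 7 genes. It had 6311 CPM of H1foo, where the highest of the others had 4302 CPM, 1322 CPM of H3f3b against 666 CPM, and 995 CPM of Npm2 against 983 CPM. It had 70.8 CPM of H3f3a, where the lowest of the others had 77.3 CPM, and 78.9 CPM of Nasp against 148 CPM. H2afz, at 29.8 CPM, and Hira, at 13.4 CPM, lay inside the range of the aged oocytes. With 48A added, the log2 ratio of spread aged over young was 1.74 instead of 0.81 for H1foo and 2.39 instead of 0.70 for H3f3b.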
